A study of Mus musculus with 10 samples.

Results

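The called binding sites of lysine-specific demethylase 1 (LSD1, encoded by *Kdm1a*) were set against the called regions of histone H3 dimethylated at lysine 9 (H3K9me2) in skeletal muscle of fed mice. Chromatin immunoprecipitation sequencing (ChIP-seq) sequences the DNA that an antibody pulls down from chromatin. Members were the peaks of the 2 samples labelled LSD1 fed and H3K9me2 fed, of 10 samples in the series, which also covers the glucocorticoid receptor (GR), H3K9me1 and input chromatin, fed and after 24 h of starvation. The labels give C57BL/6J mice of 10 weeks and skeletal muscle, the study worked with male mice, and how many animals went into each of these libraries is not given in the sample labels, although the study states that several mice were used per condition. Each side had 1 library, so no difference has a replicate check and no test was made. The labels place both libraries under different library codes, with a different range of input DNA, so code and antibody cannot be told apart. On chromosomes 1 to 19, X and Y, 16577 of 16616 LSD1 peaks and 171120 of 171402 H3K9me2 peaks were used. The fed lists of GR (14077 peaks) and H3K9me1 (14071 peaks) served for comparison.

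LSD1 is an amine oxidase that removes methyl groups from mono- and dimethylated lysines of histone H3. Lysine 4 is its best established target, and action on lysine 9 has been described for particular partner proteins. H3K9me2 is written mainly by the paired enzymes G9a and GLP (*Ehmt2* and *Ehmt1*), is read by chromodomain proteins and is known as a mark of silent chromatin that can extend over long domains. A peak list shows where an antibody recovered more DNA than input, and gives neither the amount of a mark per nucleosome nor the activity of the enzyme.

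The H3K9me2 list held mostly short regions. The median H3K9me2 peak was 92 bp long, 37.8% were 50 bp long, the minimum of that list, and all of them together covered 20.8 Mb. The median LSD1 peak was 196 bp. Median fold enrichment over input was 4.03 for LSD1 and 3.33 for H3K9me2, and a q-value of 0.01 or less was given to 45.4% of the LSD1 peaks and 20.9% of the H3K9me2 peaks. The lists also differed in place. A promoter was taken as 1000 bp upstream to 100 bp downstream of a curated RefSeq transcription start site (TSS). The midpoint lay in a promoter for 5551 LSD1 peaks (33.5%) and for 6038 H3K9me2 peaks (3.53%). Most H3K9me2 midpoints were in introns (74497) or between genes (84658). The remaining 11026 LSD1 midpoints, called elsewhere below, comprised 1279 in exons, 5804 in introns and 3943 between genes.

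The labelled tissue was checked by the promoters of marker genes, beside 22.4% of all genes with LSD1 in the promoter and 22.3% with H3K9me2. LSD1 was called at 5 of 6 muscle fibre promoters (*Ckm*, *Ttn*, *Mylpf*, *Tnnt3* and *Pvalb*, but not *Acta1*) and at 0 of those listed for satellite cells, endothelium, fibroblasts, leukocytes, smooth muscle, Schwann cells and adipocytes, each with 2 or 3 genes, too few to read a 0 for a single cell type. H3K9me2 was called at *Acta1* and *Mylpf* and at the fibroblast genes *Pdgfra* and *Dcn*. Binding is not expression, and nuclei of other cells in the tissue may contribute to either list.

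To show sites of each kind, the sequences below come from the mouse genome (RefSeq, GRCm38, the same build as mm10, plus strand). Each is the part of an LSD1 peak outside annotated exons, or up to 200 bases of it, and capitals mark the bases that also lay in an H3K9me2 peak. The first 4 are promoter sites named by the rule for overlapping pairs, *Lpin1* is a site between genes, and *Bod1l* is a promoter site with no H3K9me2 midpoint within 5 kb.
1110002L01Rik, chr12:3426748-3426856: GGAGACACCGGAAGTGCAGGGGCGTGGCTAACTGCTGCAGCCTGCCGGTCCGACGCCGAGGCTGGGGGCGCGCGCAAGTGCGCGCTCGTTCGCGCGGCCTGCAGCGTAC
Cyren, chr6:34878066-34878265: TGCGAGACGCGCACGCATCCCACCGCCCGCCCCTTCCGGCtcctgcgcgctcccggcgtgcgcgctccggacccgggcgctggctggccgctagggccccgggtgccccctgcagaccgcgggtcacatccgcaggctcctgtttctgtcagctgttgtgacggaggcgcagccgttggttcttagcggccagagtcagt
Tada1, chr1:166378967-166379166: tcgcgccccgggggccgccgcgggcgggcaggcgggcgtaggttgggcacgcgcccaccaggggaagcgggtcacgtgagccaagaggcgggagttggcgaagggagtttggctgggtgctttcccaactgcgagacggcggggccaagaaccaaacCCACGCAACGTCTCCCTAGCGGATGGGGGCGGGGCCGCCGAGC
Rnf144b, chr13:47193704-47193903: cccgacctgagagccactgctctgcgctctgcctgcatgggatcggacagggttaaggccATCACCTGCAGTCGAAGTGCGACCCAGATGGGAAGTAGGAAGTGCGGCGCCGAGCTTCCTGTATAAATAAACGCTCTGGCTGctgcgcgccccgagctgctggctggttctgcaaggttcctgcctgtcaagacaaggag
Lpin1, chr12:16618902-16619101: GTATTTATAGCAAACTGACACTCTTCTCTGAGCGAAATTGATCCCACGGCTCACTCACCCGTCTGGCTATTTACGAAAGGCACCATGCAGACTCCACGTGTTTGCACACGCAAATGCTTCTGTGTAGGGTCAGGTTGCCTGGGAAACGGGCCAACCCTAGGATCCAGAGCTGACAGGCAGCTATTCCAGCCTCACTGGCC
Bod1l, chr5:41844375-41844570: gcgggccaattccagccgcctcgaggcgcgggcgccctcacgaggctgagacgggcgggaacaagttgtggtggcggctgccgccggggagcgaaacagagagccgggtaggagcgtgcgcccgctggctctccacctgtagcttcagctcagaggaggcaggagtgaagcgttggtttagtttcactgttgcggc
The promoter stretches shown are rich in CpG, to different degrees. The stretch of *1110002L01Rik* holds 16 CpG dinucleotides in 109 bases, that of *Cyren* 25 in 200, that of *Rnf144b* 12 in 200 and that of *Bod1l* 19 in 196. The *Lpin1* stretch holds 7 in 200. The LSD1 peak at the promoter of *Art1*, without H3K9me2 like that of *Bod1l*, holds 1 in 75, so promoter sites without the mark were not all alike. Nor were the paired promoter sites. The stretch of *Hspa13*, which is not shown, holds 7 in 163, and the LSD1 peak at *Trim72* had an observed over expected CpG ratio of 0.0445.

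The 10 promoter pairs were ranked by the smaller of their 2 fold enrichments, which were close to each other at these loci. At *Hspa13*, which encodes a chaperone of the Hsp70 family, LSD1 had a fold enrichment of 4.88 and H3K9me2 of 4.85. The pair nearest to *1110002L01Rik* lay at chr12:3426467-3426866 for LSD1 (4.77-fold) and chr12:3426673-3426879 for H3K9me2 (4.81-fold), and the LSD1 midpoint was also in the promoter of *Asxl2*, a Polycomb-associated gene. At *Mfn2*, which encodes the mitochondrial fusion protein mitofusin, LSD1 (4.79-fold) and H3K9me2 (4.63-fold) overlapped just upstream of the TSS, and the midpoints were 196 bp apart. At *Trim72*, a membrane repair gene of striated muscle, the LSD1 midpoint lay at -541 bp from the TSS (4.81-fold and 4.56-fold). The others were *Cyren* (4.90 and 4.74), *Tada1* of the SAGA coactivator (4.67 and 4.71), *Rnf144b* (4.61 and 4.82), the proteasome subunit gene *Sem1* (4.56 and 4.63), *Dnajc5* (4.65 and 4.50) and the annexin gene *Anxa4* (4.98 and 4.41), LSD1 being given first. GR was called over the same LSD1 peak at *1110002L01Rik*, *Cyren*, *Tada1*, *Mfn2* and *Trim72*, and not at the other 5 loci.

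**Figure D1:**
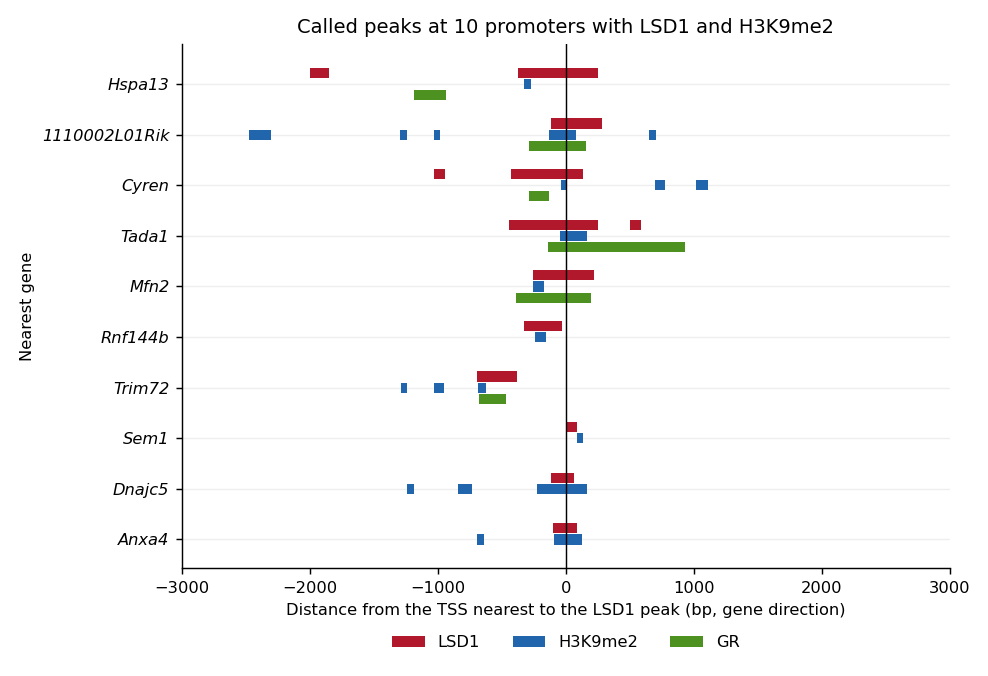
Called peaks within 3 kb of the TSS nearest to the LSD1 peak at the 10 promoter pairs. The horizontal axis is the distance from the TSS in bp in the direction of the gene, each row is a locus, and bars span the called peaks of LSD1, H3K9me2 and GR in fed muscle. At each locus an H3K9me2 bar meets an LSD1 bar, and at Trim72 the LSD1 midpoint lies at -541 bp instead of around the TSS.

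H3K9me2 peaks were densest right at LSD1 midpoints and thinned out over about 1 kb. Density counts H3K9me2 midpoints per kb of sequence at a given distance on both sides of an LSD1 midpoint. Around promoter LSD1 peaks it was 0.717 per kb within 50 bp, 0.514 between 100 and 250 bp, 0.228 between 500 and 1000 bp and 0.110 between 2000 and 5000 bp. Around LSD1 peaks elsewhere the same distances gave 0.350, 0.230, 0.143 and 0.114 per kb. From 2000 bp outwards both profiles were alike, with 0.102 and 0.101 per kb at 10 to 50 kb, above the 0.0646 per kb over all sequence. The local rise was thus a feature of the last 1 or 2 kb, while the surroundings of LSD1 peaks of both kinds held more H3K9me2 peaks than the genome average.

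**Figure D2:**
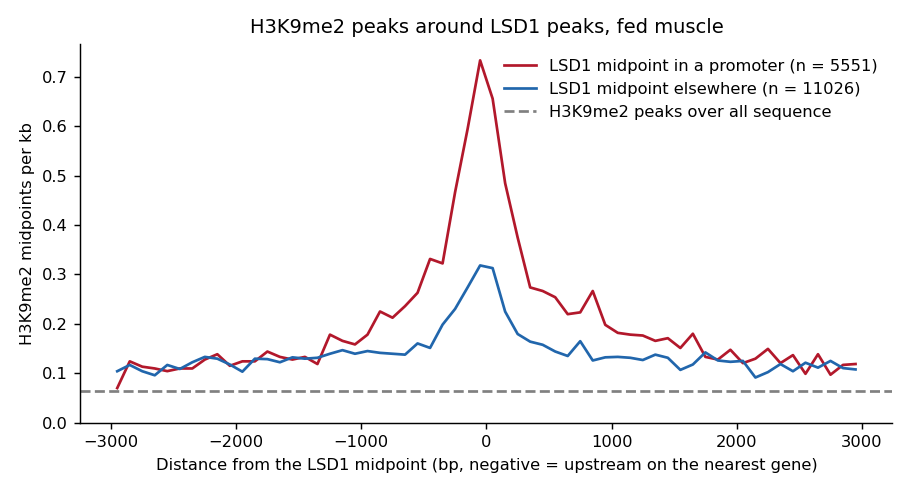
H3K9me2 midpoints per kb (vertical axis) by signed distance from the LSD1 midpoint in bp (horizontal axis, 100 bp bins) for LSD1 peaks in promoters and elsewhere in fed muscle, with the density over all sequence as a dashed line. The promoter curve reaches 0.733 per kb in the bin just upstream of the midpoint and the other curve 0.318, and both stay above the dashed line of 0.0646 over the 3 kb shown.

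The ratio of the density within 250 bp to that at 10 to 50 kb was 5.76 at promoters (95% CI 5.48 to 6.05, 1623 H3K9me2 midpoints near 5551 LSD1 peaks) and 2.59 elsewhere (2.46 to 2.73, 1451 midpoints near 11026 LSD1 peaks). Neighbouring peaks are not independent, and the intervals take in no more than counting error. Outside promoters the ratio was 3.76 in exons (3.30 to 4.26), 2.87 between genes (2.64 to 3.13) and 2.17 in introns (2.00 to 2.34), so that none of the 4 locations had a ratio near 1. The promoter window ends 100 bp downstream of the TSS, so LSD1 peaks elsewhere include sites just beyond it. With 1000 bp on both sides 7124 LSD1 peaks counted as promoter peaks, and the ratio elsewhere was 2.36 (2.22 to 2.50). The ratio was higher for the other fed lists around the same LSD1 peaks: 43.3 at promoters and 32.0 elsewhere for GR, and 7.32 and 4.78 for H3K9me1. The rise towards LSD1 was therefore not particular to H3K9me2.

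Overlap followed the same order. An H3K9me2 peak shared at least 1 bp with 1513 of 5551 promoter LSD1 peaks (27.3%, exact 95% CI 26.1 to 28.4) and with 1251 of 11026 elsewhere (11.3%, 10.8 to 11.95). The share was 17.7% in exons, 12.4% between genes and 9.27% in introns. In reverse, LSD1 overlapped 25.2% of the 6038 promoter H3K9me2 peaks (24.1 to 26.3) but 0.774% of the 165082 elsewhere (0.732 to 0.818). Most LSD1 peaks of both kinds were thus without H3K9me2. Nearly all H3K9me2 peaks away from promoters were without LSD1, but list length limits that share. Elsewhere 165082 H3K9me2 peaks faced 11026 LSD1 peaks, while promoters had 6038 and 5551. The reverse shares of promoters and elsewhere are therefore not comparable as a property of the peaks. The distance to the nearest H3K9me2 midpoint had a median of 823 bp at promoter LSD1 peaks and 2448.5 bp elsewhere, and it was over 5 kb for 1042 (18.8%) and 3350 (30.4%) of them. A cluster of 3 or more H3K9me2 midpoints within 1 kb was seen at 80 promoter LSD1 peaks and 53 elsewhere.

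The sex chromosomes stood apart from the autosomes. On the autosomes the overlapped share of promoter LSD1 peaks lay between 21.2% (chromosome 13) and 33.6% (chromosome 7), and that of the others between 8.39% (chromosome 10) and 13.9% (chromosome 6). On the X chromosome 4 of 40 promoter peaks (10.0%) and 25 of 76 others (32.9%) were overlapped, the reverse order in small numbers. On the Y chromosome 2 of 3 promoter peaks and 33 of 49 others (67.3%) were overlapped. Both lists were sparse on X, with 0.678 LSD1 and 7.00 H3K9me2 peaks per Mb against 4.96 to 11.7 and 63.3 to 80.3 on the autosomes. Male cells hold a single X chromosome, and its part in these values was not tested.

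Longer LSD1 peaks were overlapped more often, which length alone favours. From the shortest to the longest quartile of LSD1 peaks the overlapped share went from 15.0% to 37.3% at promoters and from 7.38% to 19.3% elsewhere, while the density within 250 bp, which does not depend on length, went from 0.535 to 0.637 and from 0.243 to 0.311 per kb. On the density ratio, which sets the near density against that at 10 to 50 kb, the shortest and longest quartiles had 5.40 and 6.22 at promoters and 2.49 and 2.94 elsewhere. Quartiles of LSD1 fold enrichment had 5.12 in the lowest and 6.12 in the highest at promoters, a rise of like size, but 3.03 and 2.54 elsewhere. Within overlapping pairs, LSD1 and H3K9me2 fold enrichments were weakly related at promoters (Spearman's rho 0.20 over 1513 pairs) and more so elsewhere (0.44 over 1251 pairs); these are correlations over loci of 2 libraries set against input. H3K9me2 midpoints fell on both sides of the LSD1 midpoint, 54.2% of them upstream at promoters and 52.5% elsewhere, and 32.8% and 26.7% of the H3K9me2 peaks lay wholly inside the LSD1 peak.

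GR, the hormone-activated factor studied here with LSD1, was called at 40.8% of promoter LSD1 peaks and 43.7% of those elsewhere. H3K9me2 overlapped 33.4% of the promoter LSD1 peaks that had GR (31.4 to 35.4) and 23.0% of those that had none (21.6 to 24.5). Elsewhere the shares were 12.5% and 10.5%, and the density ratio was 2.61 with GR and 2.58 without. H3K9me1, the other lysine 9 mark, overlapped few LSD1 peaks (134 in promoters and 226 elsewhere), yet 135 of the latter (59.7%) also had H3K9me2, against 10.3% of those without H3K9me1. Among LSD1 peaks elsewhere that were over 50% repeat-masked, 21.1% had H3K9me2, against 10.5% of the rest. Places called in several lists and repeats thus moved with the overlap outside promoters, and their part in it was not tested.

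Outside promoters the median GC and CpG content of overlapped LSD1 peaks was higher than that of the others, while the medians in promoters were close. Promoter LSD1 peaks with and without H3K9me2 had a median GC content of 65.1% and 65.2% and a median observed over expected CpG ratio of 0.84 in both sets. Elsewhere the GC medians were 56.0% and 52.8% and the CpG ratios 0.40 and 0.25. The ranges from lower to upper quartile overlapped there, at 49.8% to 64.0% and 48.1% to 58.2% for GC. For the CpG ratio they were 0.17 to 0.78 and 0.12 to 0.45. Some short strings differed in both places. The SP1-type box GGGCGGGG, searched on both strands of 301 bp around the LSD1 midpoint, was found at 37.9% of overlapped and 33.3% of other promoter LSD1 peaks, and at 12.5% and 5.61% elsewhere, against 21.7% of all promoters of the same length. The ETS-type string CCGGAAGT was at 8.92% and 6.49% of promoter LSD1 peaks (4.69% of all promoters), and it stands in the capitals of the *1110002L01Rik* stretch. The E-box CAGCTG, a form bound by the myogenic factors, went the other way, at 14.8% and 17.3% in promoters and 23.7% and 31.6% elsewhere (15.8% of all promoters). Its intervals in promoters overlapped (13.1 to 16.7 and 16.2 to 18.5). A match describes letters and is no evidence of a bound factor.

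At the level of genes, H3K9me2 was called more often where LSD1 was. A gene counted as having LSD1 or H3K9me2 when a midpoint lay in the promoter of any of its curated transcripts. Of 26180 genes, 5862 had LSD1 (22.4%), 5849 had H3K9me2 (22.3%) and 2575 had both (9.84%), while 3287 had LSD1 only, 3274 had H3K9me2 only and 17044 had neither. H3K9me2 was present at 43.9% of the genes with LSD1 (42.7 to 45.2) and at 16.1% of the genes without (15.6 to 16.6), a ratio of 2.73. More start sites give a gene more chances, and among genes with 1 curated TSS the shares were 41.7% of 4449 and 14.7% of 17807, a ratio of 2.85.

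Around the TSS, H3K9me2 midpoints peaked just upstream whether or not the promoter window held an LSD1 midpoint. That window ends 100 bp downstream, and genes counted without LSD1 could have it just beyond. At those genes 655 LSD1 midpoints lay 100 to 200 bp downstream, 306 of them at genes with a CpG ratio over 0.6. The contrast is thus between promoter windows, and is not one of LSD1 present against absent near the TSS. In the 250 bp before the TSS of LSD1 genes the density was 0.699 per kb and gene, against 0.214 at the other genes. In the 250 bp after it the values were 0.445 and 0.178, and between 750 and 1000 bp downstream 0.204 and 0.111. Among genes with a CpG ratio over 0.6 the 250 bp upstream held 0.721 per kb with LSD1 and 0.403 without. There the gap was narrower downstream, with 0.214 and 0.202 at 500 to 750 bp and 0.197 and 0.172 at 750 to 1000 bp.

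**Figure D3:**
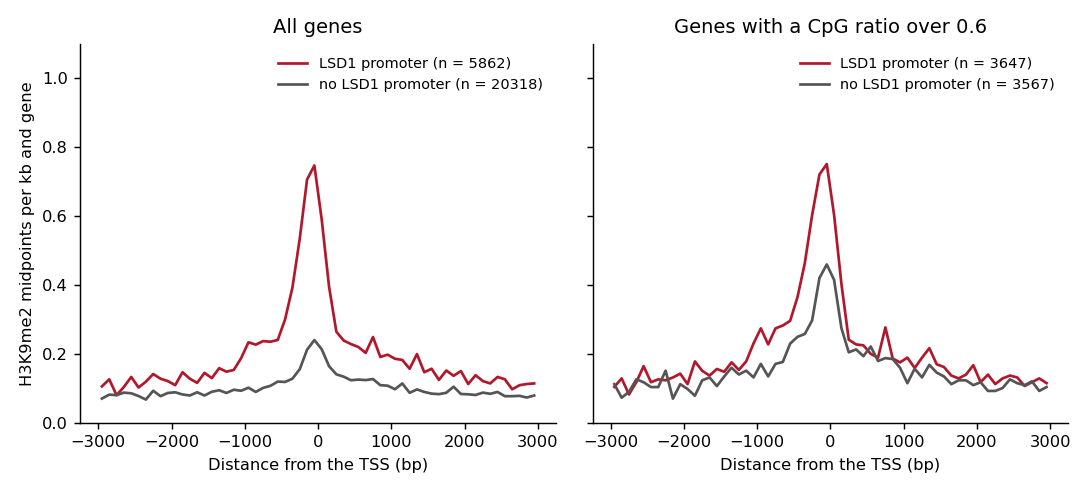
H3K9me2 midpoints per kb and gene (vertical axis) by distance from the TSS in bp (horizontal axis, 100 bp bins) for genes with and without an LSD1 midpoint in the promoter, over all genes on the left and over genes with a promoter CpG ratio over 0.6 on the right. All 4 curves peak around the TSS, and the gap between the red and grey curves is narrower on the right.

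CpG content moved with both calls. The median CpG ratio of the promoter was 0.67 in genes with both, 0.65 with LSD1 only, 0.48 with H3K9me2 only and 0.27 with neither. Within each class of CpG ratio the genes with LSD1 still had H3K9me2 more often. The shares were 27.2% and 7.70% at a ratio up to 0.2, 38.3% and 13.2% from 0.2 to 0.4, 42.9% and 22.9% from 0.4 to 0.6, 47.0% and 29.2% from 0.6 to 0.8, and 43.6% and 28.5% above, with LSD1 given first. Over genes with a ratio over 0.6 the shares were 45.8% of 3647 and 29.0% of 3567, a ratio of 1.58. GR at the promoter went with H3K9me2 to a like degree. H3K9me2 was at 49.6% of genes with LSD1 and GR (47.6 to 51.6), 39.9% with LSD1 but no GR (38.2 to 41.5), 40.3% with GR but no LSD1 (37.3 to 43.3) and 14.8% with neither (14.3 to 15.3). The intervals of the 2 sets with 1 factor overlapped, so the higher share was not particular to promoter windows with an LSD1 midpoint. Genes counted without LSD1 could have it just beyond the window, and how many of those with GR did is not given here.

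**Figure D4:**
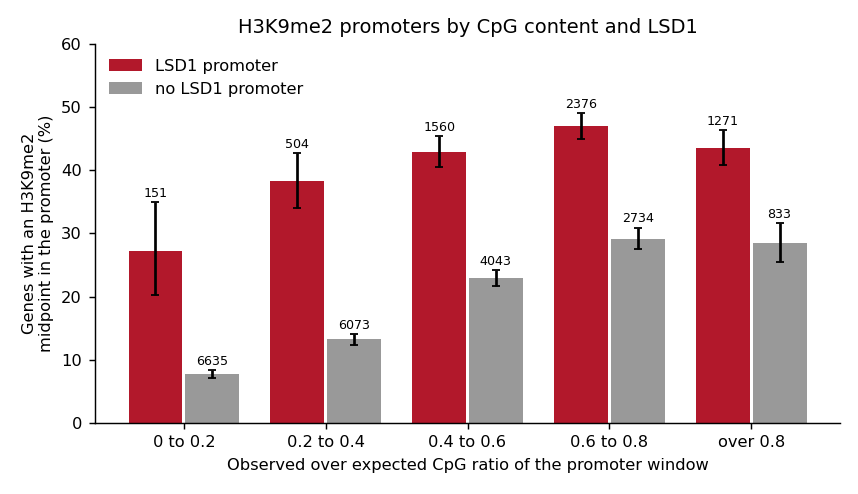
Share of genes with an H3K9me2 midpoint in the promoter (vertical axis, %) by observed over expected CpG ratio of the promoter (horizontal axis), for genes with and without LSD1 in the promoter. Error bars are exact 95% binomial intervals, which cover counting error only, and the number above each bar is the number of genes; in each class the bar with LSD1 is higher, from 27.2% against 7.70% to 43.6% against 28.5%.

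Genes that write, remove and read the mark, and those of LSD1 complex subunits, were sorted into the same classes. Of all genes, 22.4% had LSD1, 22.3% H3K9me2 and 9.84% both. The lists hold 5 to 11 genes, and the exact intervals of their shares with both overlap each other. No difference in degree between the lists can be read from such counts. The interval of the demethylase genes (12.2 to 73.8) lies above 9.84%, and those of the other lists take it in. Median CpG ratios are 0.57 to 0.76, beside 0.39 for all genes, so 9.84% is not a matched background. Of 9 H3K9 methyltransferase genes and their partners, 2 had both, 2 LSD1 only, 1 H3K9me2 only and 4 neither. *Ehmt2* had both, with LSD1 at chr17:34898429-34898564 (4.27-fold) and H3K9me2 at chr17:34898545-34898808 (3.20-fold, q-value 0.0517), whereas *Ehmt1* had LSD1 only (3.44-fold, q-value 0.0701). Both of these q-values are above 0.01, so the contrast between the paired genes rests on weak calls. *Wiz*, which encodes a zinc finger partner of G9a and GLP, also counted as both, although its LSD1 peak (chr17:32389188-32389606) and H3K9me2 peak (chr17:32364566-32364754) belonged to different start sites. *Setdb1* had H3K9me2 only (3.48-fold), *Zfp644* LSD1 only, and *Suv39h1*, *Suv39h2*, *Setdb2* and *Prdm2* had neither.

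Among 10 H3K9 demethylase genes, 4 had both, 3 LSD1 only, 2 H3K9me2 only and 1 neither. *Kdm1a*, the gene of LSD1, carried LSD1 at its own promoter (4.35-fold) without H3K9me2. *Kdm3a* (4.45-fold) and *Kdm3b* (4.86-fold) were of the same kind. *Kdm4a* had LSD1 at 5.38-fold and H3K9me2 at 3.70-fold in overlapping peaks, *Kdm7a* overlapping peaks at 4.05-fold and 3.59-fold, and *Jmjd1c* peaks next to each other at 4.31-fold and 3.29-fold. *Kdm4c* counted as both through peaks of different start sites. *Kdm4b* and *Phf2* had H3K9me2 only and *Phf8* neither. Of 5 genes of H3K9me2 readers, the HP1 genes *Cbx1* (3.76-fold) and *Cbx3* (3.63-fold) and *Mphosph8* (4.04-fold) had LSD1 only, *Cdyl* had both and *Cbx5* neither. Of 11 genes of LSD1 complex subunits, *Rcor1* of the CoREST complex (4.23-fold and 3.11-fold), *Zmym2* (4.25-fold and 3.16-fold) and, through different start sites, *Gse1* had both, *Hmg20b* and *Phf21a* were among those with LSD1 only, the deacetylase genes *Hdac1* and *Hdac2* and *Zmym3* had H3K9me2 only, and *Rcor2* and *Rcor3* had neither.

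Sarcomere genes had LSD1 without H3K9me2 more often than both, as did all genes (3287 and 2575). Of 32 sarcomere and Z-disc genes, 18 had LSD1 and 6 had H3K9me2, and 3 had both: *Mylpf*, whose LSD1 and H3K9me2 peaks belonged to different start sites, *Tnni2* (LSD1 4.46-fold, H3K9me2 3.42-fold) and *Tpm2* (4.04-fold and 3.47-fold). LSD1 without H3K9me2 was seen at 15, among them *Ttn*, the giant spring of the sarcomere, *Des*, *Tcap* and *Myl1*. H3K9me2 was thus at 3 of the 18 LSD1 promoters of this list (16.7%, a small count), against 43.9% of the LSD1 promoters of all genes. The median CpG ratio of the list was 0.24. Of 29 muscle wasting genes, 18 had LSD1 (62.1%, 42.3 to 79.3, beside 22.4% of all genes) and 8 had H3K9me2 (27.6%, 12.7 to 47.2, beside 22.3%). The median CpG ratio of this list was 0.645, and 3647 of the 7214 genes with a ratio over 0.6 had LSD1. All genes are thus not a matched background for it. The list also holds *Ddit4*, *Trim63* and *Fbxo32*, which the study showed as bound by LSD1. H3K9me2 was at 7 of the 18 LSD1 promoters, or 38.9%, near the 43.9% of all genes with LSD1: *Cebpd*, *Foxo1*, *Klf15*, *Psmd11*, *Sesn1*, *Trim63* and *Ubb*. *Foxo3* (5.11-fold), *Klf9*, *Bnip3* and *Gabarapl1* were among the 11 with LSD1 only, and *Ulk1* had H3K9me2 only.

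The loci the study followed showed each of the 4 classes. At *Ddit4*, which encodes an inhibitor of mTORC1, LSD1 lay over the TSS at chr10:59951635-59952151 (3.89-fold) and the nearest H3K9me2 peak began downstream, with its midpoint 755 bp into the gene. Of 8 LSD1 peaks within 30 kb of this TSS, 1 was overlapped by H3K9me2, at -18.6 kb. *Trim63*, the ubiquitin ligase MuRF1, had an LSD1 peak over the TSS (4.29-fold) with no H3K9me2 on it, and a further LSD1 peak at -886 bp (3.93-fold) that an H3K9me2 peak at chr4:134314056-134314250 overlapped (3.11-fold, q-value 0.0517). *Fbxo32*, the ubiquitin ligase atrogin-1, had LSD1 at 4.36-fold, no H3K9me2 within 5 kb and 0 of 2 LSD1 peaks within 30 kb overlapped. *Fbxo31* had the strongest LSD1 peak of the wasting list (6.50-fold) and no promoter H3K9me2. *Tfcp2* had an H3K9me2 peak (3.29-fold) inside its LSD1 peak (4.27-fold), and *Rap2b* had both upstream of the TSS (2.98-fold and 4.08-fold). In its promoter *Mtch1* had H3K9me2 only (3.75-fold), and *Pax7*, the satellite cell factor, had neither. Further into *Mtch1*, 6.21 kb downstream of the TSS, an LSD1 peak (5.03-fold) was overlapped by an H3K9me2 peak (3.16-fold).

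Housekeeping families had both at 14.1% to 32.9% of their genes, beside 9.84% of all genes. The exact intervals of the mitochondrial ribosomal (7.26 to 23.8) and proteasome genes (9.30 to 36.5) take in 9.84%. H3K9me2 was at 56.25% of the LSD1 promoters of cytosolic ribosomal genes and 50% of those of respiratory chain genes. The share was 44.4% for proteasome and 31.4% for mitochondrial ribosomal genes, beside 43.9% of all genes with LSD1. Median CpG ratios were 0.57 to 0.65, beside 0.39 for all genes, so the 9.84% is not matched for CpG content. Of the 7214 genes with a ratio over 0.6, 1671 had both. Of 82 cytosolic ribosomal protein genes, 27 had both and 21 had LSD1 only. *Rps29* had the highest H3K9me2 fold enrichment among the named members (11.7-fold, with LSD1 at 5.52-fold), followed in its list by *Rps16* (4.02-fold), *Rps3* (3.82-fold) and *Rps14* (3.60-fold). Ribosomal protein genes have near-identical processed copies, so reads with 1 location may be unevenly kept there. Of 84 respiratory chain genes, 21 had both and 21 LSD1 only, including *Cox4i1* (H3K9me2 4.77-fold, LSD1 4.15-fold), *Sdha* of complex II (4.36 and 4.45) and *Ndufv2* (4.23 and 4.01) and *Ndufv1* (3.89 and 3.86) of complex I. Of 39 proteasome subunit genes, 8 had both, with *Psmb2* in the lead (5.16-fold and 4.28-fold), 10 LSD1 only and 11 H3K9me2 only. Of 78 mitochondrial ribosomal protein genes, 11 had both, such as *Mrpl42* (4.60-fold and 4.31-fold), 24 LSD1 only and 13 H3K9me2 only.

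Olfactory receptor, Hox and clustered protocadherin genes had almost no LSD1, beside 22.4% of all genes. Of 1110 olfactory receptor genes, 0 had LSD1 (exact upper limit 0.332%) and 54 had H3K9me2 (4.86%), below the 22.3% of all genes and at a median CpG ratio of 0.11. Of 39 Hox genes, which set position along the body axis, 1 had LSD1 and 12 had H3K9me2 (30.8%). The interval of that share (17.0 to 47.6) takes in the 22.3% of all genes. None had both, which says little where only 1 had LSD1. Of 58 clustered protocadherin genes, 4 had H3K9me2 only and *Pcdhgc3* had both. In contrast, of 395 genes named Zfp, which encode mostly zinc finger proteins, 55 had both, 68 LSD1 only and 82 H3K9me2 only. LSD1 was thus at 31.1% of them, beside 22.4% of all genes, and both at 13.9%, beside 9.84%. *Zfp292* had H3K9me2 at 4.37-fold and LSD1 at 4.40-fold. Genes of a cluster share their surroundings and are not independent.

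**Figure D5:**
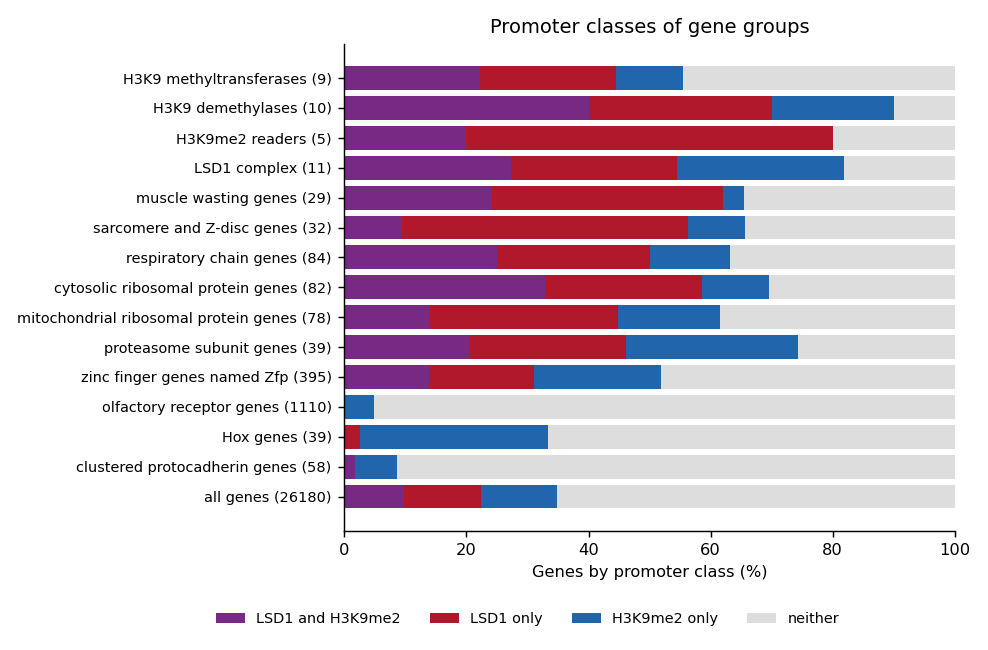
Share of genes (horizontal axis, %) in the 4 promoter classes for 14 gene groups and for all genes, with the number of genes in brackets. Purple stands for LSD1 and H3K9me2, red for LSD1 only, blue for H3K9me2 only and grey for neither; sarcomere genes are mostly red where coloured (15 of 32), Hox genes mostly blue (12 of 39), and olfactory receptor genes have no red or purple.

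Sites with one side only were ranked by the fold enrichment of that side, so their folds are not comparable with those of the pairs. LSD1 promoter peaks with no H3K9me2 midpoint within 5 kb were led by *Arid3a* (6.82-fold), *Ctnna3* (6.52-fold, nearest H3K9me2 midpoint at 30223 bp), *Bod1l* (6.26-fold), *Crot*, a carnitine acyltransferase of peroxisomes (6.16-fold), and *Art1*, a muscle ADP-ribosyltransferase (6.08-fold). H3K9me2 promoter peaks with no LSD1 midpoint within 5 kb were led by *Sh3bgrl3* (5.50-fold), *D130040H23Rik* (5.27-fold), *Zfp950* (5.27-fold), *Mrpl57* (5.10-fold, in the promoter of *Ska3*) and *Tcp11l1* (5.09-fold), and their nearest LSD1 midpoints were 25861 to 77998 bp away. Outside promoters the leading pairs lay nearest to *Sox2* (LSD1 4.84-fold, H3K9me2 5.57-fold over chr3:34647325-34648639), *Lpin1*, a phosphatidate phosphatase gene (4.71 and 4.91, at -8030 bp from the TSS), *Slc38a4* (5.03 and 4.67), *Zfp184* (4.93 and 4.60) and *Tnfsf12*, which encodes the cytokine TWEAK (5.07 and 4.58). The *Sox2* pair lay in an intron of an overlapping transcript, and LSD1 at each of these sites but *Zfp184* also had GR.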

How the data were processed

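The authors sequenced 1 ChIP-seq library per antibody and condition, mapped single-end reads to mm10 and called broad peaks per library with MACS2 against input. The methods name an early Bowtie and a human blacklist, while deposited peak names carry Bowtie2. Basecalling used bcl2fastq 2.20.0.422 per the submitters' processing notes. The deposited lists hold for each peak a ratio (fold enrichment over input), a p-value and a q-value, the latter pair on the −log10 scale. The highest q-values were 0.0932 (LSD1) and 0.0998 (H3K9me2), above the false discovery rate the methods state. Read numbers were not analysed, so depth is unknown. The 4 starved lists were not used. The labels' age differs from that in the text of the study.

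Peaks on chromosomes 1 to 19, X and Y were placed by midpoint against 45756 curated RefSeq transcripts (GRCm38) of 26180 genes, with Python 3.11.15, numpy 2.4.6, pandas 2.3.3 and scipy 1.17.1. Shares have exact (Clopper-Pearson) 95% CIs, and density ratios the exact binomial interval of near among near plus far counts. The density script was tested on simulated peaks. A CpG ratio is observed over expected CpG.

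Named genes were the study's example loci, the 10 promoter pairs and 5 pairs elsewhere with the highest smaller fold enrichment, and the 5 strongest LSD1-only and H3K9me2-only promoter peaks (none over 50% repeat-masked or on Y). Up to 4 members with both promoters were added per gene list, and every member of lists under 20 genes; a few further list members were named after their values were seen. Some loci that this rule names are not reported here. Members and lists were chosen with earlier results of these data known. Alternatives varied the q-value, list length, repeats, peak length, promoter window, overlap, far reference and LSD1 sites with GR or neighbours.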

Additional observations from a re-analysis of the deposited data

How the results depend on the processing

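H3K9me2 stayed denser near LSD1 than far away, and more frequent at LSD1 promoters than at other promoters, under the alternative settings run for each of these results and listed here, but shares of overlap depended strongly on list length. Values follow in the order overlapped promoter LSD1 peaks, overlapped LSD1 peaks elsewhere, density ratio at promoters, density ratio elsewhere, H3K9me2 at genes with LSD1 and H3K9me2 at genes without. With q-values of 0.01 or less in both lists they were 8.18%, 5.19%, 8.15, 4.67, 13.1% and 4.59%. With the H3K9me2 list cut to the 16577 peaks of highest fold, whose median length was 50 bp, they were 1.80%, 1.11%, 4.27, 2.81, 3.48% and 1.37%, a fall that the shorter list itself brings. Without peaks over 50% repeat-masked they were 27.1%, 10.3%, 7.19, 2.94, 42.5% and 14.9%. Without peaks under 100 bp they were 22.6%, 9.48%, 8.02, 3.35, 31.6% and 10.5%. With a promoter of 1000 bp on both sides they were 25.2%, 10.2%, 5.38, 2.36, 55.0% and 23.0%. Requiring 50% of the shorter peak gave overlaps of 20.5% and 8.63%. Without LSD1 peaks that had GR the overlaps were 23.0% and 10.5% and the ratios 5.23 and 2.58. Without those that had H3K9me1, an alternative added after seeing the data, they were 27.0% and 10.3%, and 5.73 and 2.43. The far reference of 50 to 100 kb gave ratios of 6.03 and 2.77, and LSD1 peaks with no other within 10 kb 6.08 and 2.80. Any base of a peak in the promoter gave 46.1% and 16.8% of genes. The ratio of the gene shares with and without LSD1 (2.73) lay between 2.39 with the wider promoter and 3.01 without short peaks. Shorter lists lower a share by construction, and other causes of these shifts were not tested. No paired analysis was possible because each group has 1 library and the values come from no test.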
